A study of Homo sapiens with 12 samples.

Results

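The genes described here encode the proteins of the mitochondrial ribosome (mitoribosome), the machine that translates the few mRNAs still carried by mitochondrial DNA. They were taken as the rows of the count table whose Ensembl identifier maps to an MRPL or MRPS symbol and whose mean estimated count over 12 libraries was at least 10. All 78 genes with such a symbol met the minimum, among 60649 identifiers in the table. Of these, 49 carry an MRPL (large subunit) and 29 an MRPS (small subunit) symbol. Their mean counts ran from 480 for MRPS36 to 6265 for MRPL37, so none was near the minimum, and all 78 were among the 18119 genes that were tested. The RNA came from AC16 cells, an immortalised human line described as resembling ventricular cardiomyocytes, and was measured by poly(A)-selected RNA sequencing in 4 groups of 3 libraries. Repeat cells had a 24 h pulse of recombinant interferon alpha-2a at 1000 U/mL, 4 days without it and a further 24 h pulse. Recovery cells had a 24 h pulse at that dose and then 5 days without interferon. Acute cells were taken after a single 24 h pulse, and vehicle cells after 24 h with phosphate-buffered saline. Because each vehicle library is labelled 24 h, recovery and repeat cells also differ from vehicle and acute cells in time in culture, and the effect of time cannot be told apart from that of treatment in those comparisons. Repeat cells are labelled as harvested on day 7 and recovery cells on day 6, although the stated times for repeat cells also add to 6 days, so these groups may differ in time as well.

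Mitoribosomal proteins are encoded in the nucleus, made in the cytosol and imported into mitochondria, where they assemble with mitochondrially encoded rRNA. The large subunit forms peptide bonds and holds the exit tunnel, and the small subunit binds the mRNA and decodes it. Many of the proteins have bacterial counterparts, while others are found only in mitochondria. All products of the human mitoribosome are subunits of the respiratory chain and ATP synthase, and inherited loss of single mitoribosomal proteins can cause cardiomyopathy. Symbols do not always match the place of the protein: MRPS18A and MRPS30 sit in the large subunit (mL66 and mL65 in the uniform nomenclature).

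Library totals were 39.9 to 62.3 M estimated counts. The biological coefficient of variation (BCV, the spread between replicate libraries beyond counting error) was 2.67%. Calls are from edgeR's quasi-likelihood test, two-sided, at 0.05 after Benjamini-Hochberg adjustment across the whole table. All 10 interferon-stimulated genes on the list used as a treatment check rose in acute over vehicle cells, by 2.33 to 8.97 on the log2 scale. The line did not show a cardiomyocyte marker profile. Of 12 such markers, 11 (all but ACTN2) stayed under 1 TPM (a level per transcript length, scaled to the same total in each library) in every library and MYL7 was at 0, whereas 10 fibroblast markers summed to 4670 to 4800 TPM in repeat, 4880 to 4930 in recovery, 4790 to 4940 in acute and 4870 to 5060 in vehicle cells, and 8 of these 10 fell and 1 (VIM) rose in each pulse (acute over vehicle for the first, repeat over recovery for the second). The 5 endothelial markers summed to 1.84 to 2.32 TPM over all libraries. The 4 leukocyte markers summed to 273 to 285 TPM in repeat, 137 to 145 in recovery, 268 to 294 in acute and 111 to 117 in vehicle cells, with CD3E at 0 throughout. The part of other cell types in the member values was not tested.

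Per unit of length, the 78 mRNAs spanned a 62.3-fold range of mean TPM. MRPL51 (mL51, found only in mitochondrial ribosomes) was the highest at 358 TPM, followed by MRPL52 (mL52) at 347 TPM and MRPL20 (bL20m, counterpart of a bacterial protein needed early in large subunit assembly) at 245 TPM. The lowest were MRPL50 (mL50) at 5.75, MRPS31 (mS31) at 7.44 and MRPL57 (mL63) at 9.54 TPM. The medians of both classes of symbol were close, 50.2 TPM for MRPL and 50.3 TPM for MRPS. Subunits of a particle with fixed stoichiometry had unequal mRNA levels.

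**Figure D1:**
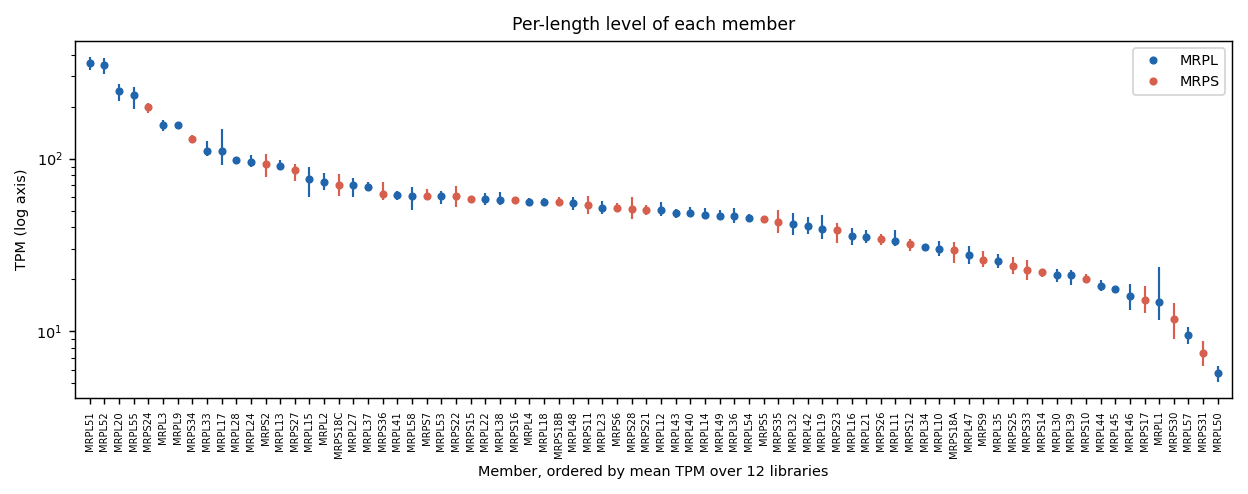
Mean TPM over 12 libraries of each of the 78 members on a log axis, ordered from MRPL51 (358 TPM) to MRPL50 (5.75 TPM), with MRPL symbols in blue and MRPS symbols in red. Vertical lines run from the lowest to the highest library; for MRPL1 and MRPL17 they are among the longest.

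The first question was what a single pulse did, by comparing acute with vehicle cells. Of the 78 members, 32 (41%) rose and 6 (7.69%) fell, while 22.3% of all tested genes were called higher and 21.5% lower. The median log2 fold change was 0.08 over members and 0.00 over all genes tested, and no member changed by more than 0.37 on that scale, so the rises were small. In the bulk RNA measured here, a change in RNA per cell and a change in the make-up of the cells cannot be told apart. The direction was uneven in both subunits, with 18 MRPL mRNAs higher and 4 lower, and 14 MRPS mRNAs higher and 2 lower. The split depended on scaling: upper quartile scaling gave 26 higher and 12 lower, and library totals alone gave 26 and 10. With an offset for gene length, taken from the ratio of count to TPM, there were 14 and 3. Libraries of the groups did not overlap, with acute higher, for 39 members (50% of them, against 26.5% of all genes), and with acute lower for 8 (10.3%, against 26.3%).

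**Figure D2:**
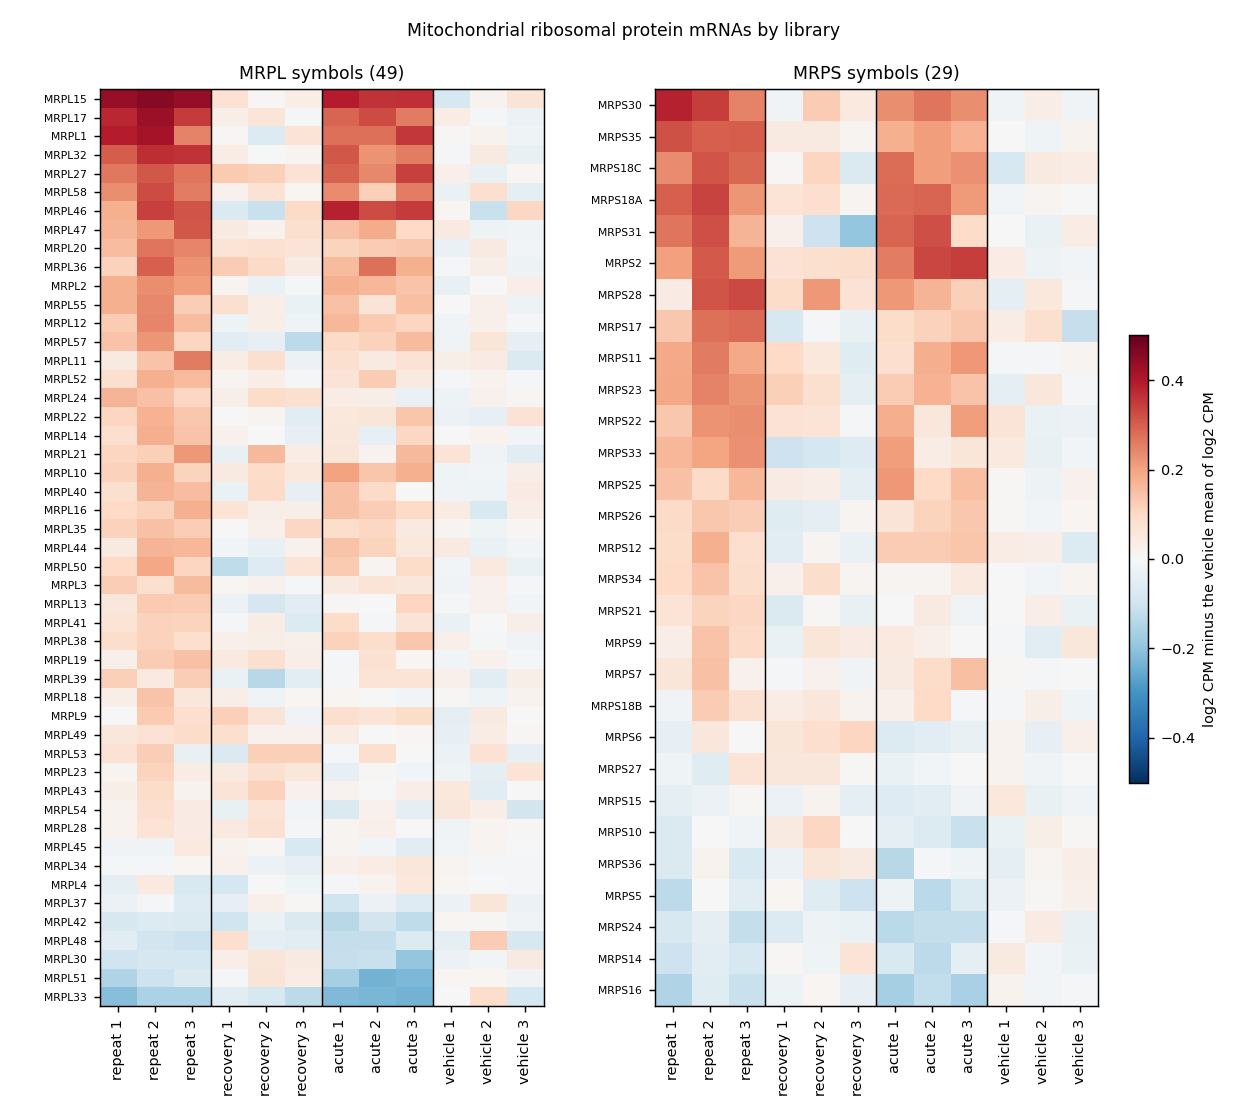
Each cell is the log2 CPM (counts scaled for library size, here with TMM factors) of a member in a library minus the mean of the vehicle libraries, with repeat, recovery, acute and vehicle libraries from left to right. The left panel holds 49 MRPL and the right panel 29 MRPS symbols, each ordered by its repeat over vehicle fold change. Most of the upper rows are red in repeat and acute libraries and pale in recovery and vehicle libraries; MRPL33 and MRPL51, at the bottom left, are blue.

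Among large subunit proteins with bacterial counterparts, MRPL15 (uL15m, counterpart of bacterial L15) moved most. It had 58, 56.8 and 56.9 CPM in acute and 41.8, 44.8 and 46.2 CPM in vehicle libraries. All acute libraries lay above all vehicle libraries, and the log2 fold change was 0.37 ± 0.034 (SE; adjusted p = 3.69e-10, edgeR). MRPL17 (bL17m, whose bacterial counterpart lies near the exit tunnel) had 75.0, 76.8 and 73.4 CPM in acute and 62.9, 61 and 60 CPM in vehicle libraries, again with no overlap (log2 fold change 0.29 ± 0.03, edgeR adjusted p = 4.71e-09). MRPL32 (bL32m, a protein that the m-AAA protease must process before it enters the ribosome in yeast) had 41.1, 38.7 and 39.5 CPM in acute and 32.9, 34.2 and 32.3 CPM in vehicle libraries, without overlap (0.27 ± 0.036, edgeR adjusted p = 5.37e-07). MRPL1 (uL1m, the protein of the L1 stalk where deacylated tRNA leaves) had 10.5, 10.5 and 11.1 CPM in acute and 8.72, 8.78 and 8.55 CPM in vehicle libraries, which do not overlap. Its log2 fold change of 0.30 ± 0.064 (edgeR adjusted p = 0.000335) was not called on TPM, where the value was 0.22, and the gene length implied by its counts and TPM varied more over libraries than that of any other member (CV of 16.0%, against a median of 2.53%).

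Among 21 large subunit proteins found only in mitochondria, 7 rose (33.3%), 2 fell (9.52%) and 12 were not called. Of all genes tested, 22.3% were called higher and 21.5% lower. MRPL46 (mL46) had 21.0, 20.2 and 20.5 CPM in acute and 16.2, 14.9 and 17.3 CPM in vehicle libraries. Acute libraries were all higher, with a log2 fold change of 0.35 ± 0.059 (edgeR adjusted p = 2.1e-05). MRPL58 (mL62, an integral protein with peptidyl-tRNA hydrolase activity that can release stalled chains) had 38.1, 35.1 and 38.6 CPM in acute and 31.6, 34.2 and 31.2 CPM in vehicle libraries. These did not overlap either (0.21 ± 0.042, edgeR adjusted p = 0.00017), though the call was lost on TPM at a value of 0.20. MRPS30 (mL65), another large subunit protein despite its symbol, had 20.8, 21.3 and 20.8 CPM in acute and 17.5, 18.1 and 17.5 CPM in vehicle libraries, with no overlap (0.24 ± 0.048, edgeR adjusted p = 0.000122).

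Of 3 proteins of the stalk that recruits translation factors, 2 were called, where 43.8% of all genes tested were called. Differences between the 3 proteins were not tested. MRPL12 (bL12m, the flexible stalk protein, also known to bind the mitochondrial RNA polymerase) had 71.8, 70.1 and 69.0 CPM in acute and 63.3, 65.2 and 63.5 CPM in vehicle libraries, and rose by 0.14 ± 0.031 (log2, edgeR adjusted p = 0.000605). MRPL10 (uL10m), which anchors it, had 43.2, 41.3 and 42.5 CPM in acute and 37.0, 37.2 and 38.4 CPM in vehicle libraries, and rose by 0.18 ± 0.034 (edgeR adjusted p = 9.52e-05). Neither gene's groups overlapped, and with an offset for gene length MRPL12 was not called (0.12). MRPL11 (uL11m, at the base of the stalk) had 32.2, 31.4 and 32 CPM in acute and 31.1, 31.3 and 29 CPM in vehicle libraries; these did not overlap either, but the difference of 0.06 ± 0.047 was not called (edgeR adjusted p = 0.294; interval -0.03 to 0.16).

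In the small subunit, MRPS2 (uS2m, counterpart of bacterial S2) led with 80.7, 85.2 and 86.0 CPM in acute and 69.4, 66.4 and 67.0 CPM in vehicle libraries. Acute libraries were all higher (log2 fold change 0.31 ± 0.031, edgeR adjusted p = 2.65e-09). The MRPS18 paralogs, of which MRPS18B (mS40) and MRPS18C (bS18m) belong to the small subunit and MRPS18A to the large one, gave different calls. MRPS18A had 34.4, 34.6 and 32.8 CPM in acute and 28, 28.6 and 28.3 CPM in vehicle libraries (0.26 ± 0.039, edgeR adjusted p = 2.73e-06). MRPS18C had 16.7, 15.9 and 16.1 CPM in acute and 13, 14.2 and 14.1 CPM in vehicle libraries (0.25 ± 0.054, edgeR adjusted p = 0.000446; 0.20 and not called with the length offset). For both, acute libraries lay above all vehicle libraries. MRPS18B had 91.1, 96.1 and 89.0 CPM in acute and 89.3, 91.4 and 88.2 CPM in vehicle libraries, which overlapped, and the difference of 0.04 ± 0.033 was not called (edgeR adjusted p = 0.39; interval -0.03 to 0.10). The difference between paralogs was not tested.

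Of 4 disease genes followed in full, 2 were called, where 43.8% of all genes tested were called. MRPL44 (mL44, with an RNase III-like fold, linked to cardiomyopathy) had 38.3, 37.5 and 36.0 CPM in acute and 35.8, 33.9 and 34.4 CPM in vehicle libraries, a rise of 0.10 ± 0.039 (log2, edgeR adjusted p = 0.0331) that was called in 13 of 23 alternatives; without vehicle replicate 2 or 3 or acute replicate 1 or 2 it was 0.08 to 0.10 and not called. MRPS22 (mS22, linked to cardiomyopathy and brain disease) had 39.9, 36.6 and 40.7 CPM in acute and 36.8, 34.4 and 34.5 CPM in vehicle libraries, which overlap, with a rise of 0.15 ± 0.042 (edgeR adjusted p = 0.00421). MRPS22 shares exon bases with COPB2 on the opposite strand, a gene with a mean of 14400 counts that rose by 0.14 ± 0.0214 (edgeR adjusted p = 4.74e-06), and the part of shared reads was not tested. MRPL3 (uL3m, linked to cardiomyopathy) averaged 124 ± 1.17 CPM in acute and 120.0 ± 1.66 CPM in vehicle cells (SD, n = 3 each), and MRPS34 (mS34, linked to Leigh syndrome) averaged 116 ± 1.41 CPM in acute and 114 ± 0.951 CPM in vehicle cells. Their differences of 0.05 ± 0.024 and 0.03 ± 0.025 were not called (edgeR adjusted p = 0.0844 and 0.404), with intervals of 0.00 to 0.10 and -0.02 to 0.08; on TPM, MRPL3 was called at 0.10.

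The 6 members that fell were MRPL33, MRPL51, MRPS16, MRPL30, MRPS24 and MRPL42 (the last 2 named after their values were seen). MRPL33 (bL33m, a small rRNA-binding protein) had 32.7, 32.6 and 32.4 CPM in acute and 38.2, 40.5 and 35.9 CPM in vehicle libraries, all acute libraries being lower (-0.23 ± 0.04, edgeR adjusted p = 2.63e-05). MRPL51 had 92, 87.7 and 88.5 CPM in acute and 104, 104 and 102 CPM in vehicle libraries, also without overlap (-0.21 ± 0.027, edgeR adjusted p = 3.09e-07). It shares exon bases on the opposite strand with NCAPD2, a condensin subunit with a mean of 21400 counts that fell by 0.46 ± 0.02 on the log2 scale (edgeR adjusted p = 4.02e-17). MRPL33 overlaps BABAM2 on the same strand, which had -0.10 ± 0.0433 (edgeR adjusted p = 0.0663). MRPS16 (bS16m) had 76.2, 78.4 and 76.4 CPM in acute and 86.5, 84.7 and 85.0 CPM in vehicle libraries, and MRPL30 (uL30m) had 49.1, 49.3 and 46.6 CPM in acute and 52.2, 52.7 and 54.9 CPM in vehicle libraries. Both were lower in every acute library, at -0.15 ± 0.027 (edgeR adjusted p = 4.31e-05) and -0.14 ± 0.031 (0.000559). On TPM these 2 turned the other way, to 0.01 and 0.08, and neither these nor MRPL42 kept its direction in every alternative, whereas MRPL33, MRPL51 and MRPS24 (-0.13 ± 0.027, edgeR adjusted p = 0.000282) were called lower in all 23. Among the members that rose, 14 were called in all 23 alternatives: MRPL10, MRPL15, MRPL17, MRPL27, MRPL32, MRPL36, MRPL46, MRPS2, MRPS11, MRPS18A, MRPS22, MRPS23, MRPS30 and MRPS31. All alternatives used the deposited counts or TPM, so none changed how reads were assigned to genes. The number called in all 23 was not counted over all genes tested.

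**Figure D3:**
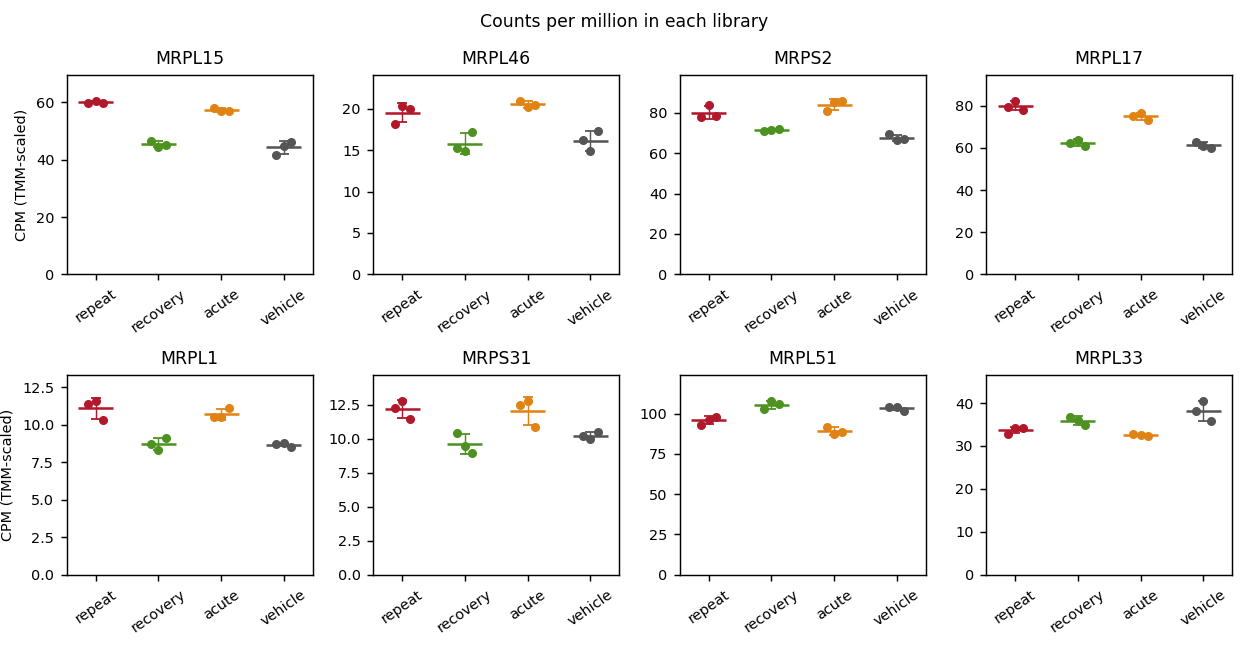
CPM of 8 members in each library; points are libraries, horizontal lines group means and bars SDs (n = 3), with axes from 0. In the panels of MRPL15, MRPL46, MRPS2, MRPL17, MRPL1 and MRPS31, repeat and acute points lie above recovery and vehicle points; in those of MRPL51 and MRPL33 they lie below, and recovery 3 of MRPL33 at 34.8 CPM is close to the repeat points at up to 34.2 CPM.

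The second question was what was left 5 days after the pulse. No member was called in recovery over vehicle cells by edgeR, DESeq2 or limma-voom, while edgeR called 5.94% of all genes tested (3.03% higher and 2.91% lower). At an unadjusted edgeR p under 0.05 there were 7 of 78 members, against 3080 of 18119 genes tested. The smallest edgeR adjusted p among members was 0.0715, for MRPL27 (bL27m). MRPL27 had 42.7, 42.4 and 41 CPM in recovery and 39.7, 38.0 and 39.3 CPM in vehicle libraries, which do not overlap, and its log2 difference was 0.11 ± 0.034. All member differences lay between -0.09 and 0.13, with a median of 0.02 and a median SE of 0.037. Among the interferon-stimulated genes, 7 of 10 were still higher in recovery cells.

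Against acute cells, recovery cells had 30 members lower and 8 higher (38.5% and 10.3%), where 20.7% of all genes were lower and 20.4% higher. Upper quartile scaling gave 22 lower and 13 higher, and library totals 23 and 11, while the length offset gave 11 lower and 4 higher. MRPL46 changed most, to 15.3, 14.9 and 17.2 CPM in recovery libraries, against 21.0, 20.2 and 20.5 CPM in acute libraries, with no overlap (-0.38 ± 0.059, edgeR adjusted p = 8.2e-06). MRPL51 was higher at 103, 108 and 106 CPM in recovery libraries, against 92, 87.7 and 88.5 CPM in acute libraries, again without overlap (0.24 ± 0.027, edgeR adjusted p = 2.99e-08).

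The third question was whether a later pulse moved the same mRNAs. In repeat over recovery cells, 44 members rose and 3 fell (56.4% and 3.85%), where 21.1% of all genes were called higher and 20.5% lower (41.6% in all). The counts were 28 and 1 on TPM and 22 and 1 with the length offset, and 7 were lower under upper quartile scaling or library totals. The median log2 fold change was 0.11, with 27 higher and 2 lower among MRPL and 17 higher and 1 lower among MRPS symbols. MRPL15 had 59.8, 60.6 and 59.9 CPM in repeat and 46.5, 44.4 and 45.1 CPM in recovery libraries, far from overlapping (0.41 ± 0.033, edgeR adjusted p = 5.39e-11). MRPL17 had 79.6, 82.5 and 78.2 CPM in repeat and 62.6, 64 and 60.9 CPM in recovery libraries, also apart (0.36 ± 0.029, edgeR adjusted p = 6.29e-11).

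MRPL1, at 11.4, 11.6 and 10.3 CPM in repeat and 8.72, 8.29 and 9.10 CPM in recovery libraries, did not overlap either and rose by 0.35 ± 0.063 (edgeR adjusted p = 3.96e-05), a call that was again lost on TPM at a value of 0.39. MRPS31 had 12.3, 12.8 and 11.5 CPM in repeat and 10.4, 9.51 and 8.94 CPM in recovery libraries, all repeat libraries being higher (0.34 ± 0.067, edgeR adjusted p = 0.000116). Its reads may be shared with the pseudogenes MRPS31P5 and MRPS31P4, which had 26.1% and 14.8% of its mean count, and MRPS36 with MRPS36P1 at 30.3%, so both are uncertain. The 3 that fell were MRPL30, MRPL51 and MRPS16. MRPL51 had 93.2, 96.3 and 98.2 CPM in repeat and 103, 108 and 106 CPM in recovery libraries, which stay apart (-0.14 ± 0.027, edgeR adjusted p = 7.67e-05), and NCAPD2 fell again, by 0.49 ± 0.0199. MRPL30 had 49.7, 50.3 and 50.1 CPM in repeat and 54.5, 55.6 and 54.9 CPM in recovery libraries (-0.14 ± 0.031, edgeR adjusted p = 0.000673), and MRPS16 averaged 79.3 ± 2.41 CPM in repeat and 84.2 ± 1.5 CPM in recovery cells (SD, n = 3 each; -0.09 ± 0.027, edgeR adjusted p = 0.0105). On TPM both were still below 0 but not called, at -0.07 and -0.01, and MRPS16 was -0.07 and not called without recovery replicate 2 or without repeat replicate 1.

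MRPL12 had 69.8, 75.7 and 71.3 CPM in repeat and 62.9, 65.3 and 63 CPM in recovery libraries, without overlap (0.18 ± 0.031, edgeR adjusted p = 1.67e-05). MRPL11, not called after the first pulse, rose by 0.12 ± 0.046 (edgeR adjusted p = 0.0348) in overlapping groups and kept the call in 12 of 23 alternatives (0.07 to 0.13 and not called without recovery replicate 1 or 3 or repeat replicate 2 or 3). MRPL10 was not called at 0.07 ± 0.034 (edgeR adjusted p = 0.095). MRPL58 rose by 0.24 ± 0.041 (edgeR adjusted p = 2.62e-05), MRPL44 by 0.14 ± 0.039 (0.00511), MRPS22 by 0.16 ± 0.041 (0.0028), MRPL3 by 0.11 ± 0.023 (0.000359) and MRPS34 by 0.07 ± 0.025 (0.0292). On TPM, MRPL58, MRPL44, MRPS22 and MRPS34 were not called, nor was MRPS2, and MRPS34 was 0.05 to 0.06 and not called without recovery replicate 1 or 3 or repeat replicate 2. Of the MRPS18 paralogs, MRPS18C rose by 0.27 ± 0.053 (edgeR adjusted p = 0.000155) and MRPS18A by 0.23 ± 0.039 (1.4e-05), while MRPS18B had 0.03 ± 0.032 (0.535).

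Relative to vehicle, repeat cells had 51 members higher and 6 lower (65.4% and 7.69%), where 23.4% and 22.9% of all genes were called (46.3% in all), with a median log2 fold change of 0.12. On TPM 35 were higher and 1 lower, and with the length offset 22 and 1. The values were 0.44 ± 0.033 for MRPL15, 0.39 ± 0.029 for MRPL17, 0.36 ± 0.063 for MRPL1 and 0.35 ± 0.035 for MRPL32, and at the low end -0.18 ± 0.039 for MRPL33 and -0.11 ± 0.026 for MRPL51. Of these, MRPL1 and MRPL51 were not called on TPM. Against acute cells, only 3 members were called in repeat cells, all higher (3.85%), where 1.77% of all genes were called higher and 2.43% lower (4.2% in all): MRPL24 (uL24m) at 0.13 ± 0.031, whose direction did not hold in every alternative, MRPS35 (mS35) at 0.12 ± 0.028 and MRPL51 at 0.10 ± 0.027 (the first 2 named after their values were seen). MRPS35 had 60.6, 59.9 and 60 CPM in repeat and 55, 56.3 and 54.9 CPM in acute libraries, which were apart (edgeR adjusted p = 0.0127), as were 9.98% of all genes with repeat higher. These calls rested on single libraries: without acute replicate 3 there were 0, without repeat replicate 2 there was 1 and without repeat replicate 1 there were 6.

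The responses to each pulse were then set against each other; acute over vehicle and repeat over recovery share no library. Across the 78 members the log2 fold changes correlated with a Pearson r of 0.88 and a Spearman rho of 0.88. This is a description over genes that share libraries, depth and scaling. Across all 18119 genes the values were 0.66 and 0.69. Members were measured more precisely, with a median SE of 0.036 in each pulse, against 0.062 and 0.061 for all genes. The part of precision in these correlations and in the shares of calls was not tested. Of 32 members that rose with the first pulse, 29 also rose with the second, which is 90.6% of the first list and 65.9% of the 44 in the second; over all genes tested, the shares of higher calls in common were 76.4% and 80.9%. The 3 members that fell with the second pulse also fell with the first, none changed in opposite directions, and 25 were called in neither. A full cycle of a rise, a fall in recovery and another rise passed the test at each step for 25 members (32.1%, against 15.7% of all genes tested; successive steps share libraries), among them MRPL1, MRPL12, MRPL15, MRPL17, MRPL32, MRPL46, MRPL58, MRPS2, MRPS22 and MRPS31, and the reverse cycle for MRPL30, MRPL51 and MRPS16 (3.85%, against 15% of all genes). In every alternative and both pulses, 8 rose (MRPL15, MRPL17, MRPL27, MRPL32, MRPL46, MRPS18A, MRPS30 and MRPS31) and MRPL51 fell. This was not counted over all genes tested. No alternative changed how reads were assigned, so MRPS31 stays uncertain for its pseudogenes and MRPL51 for its overlap with NCAPD2.

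**Figure D4:**
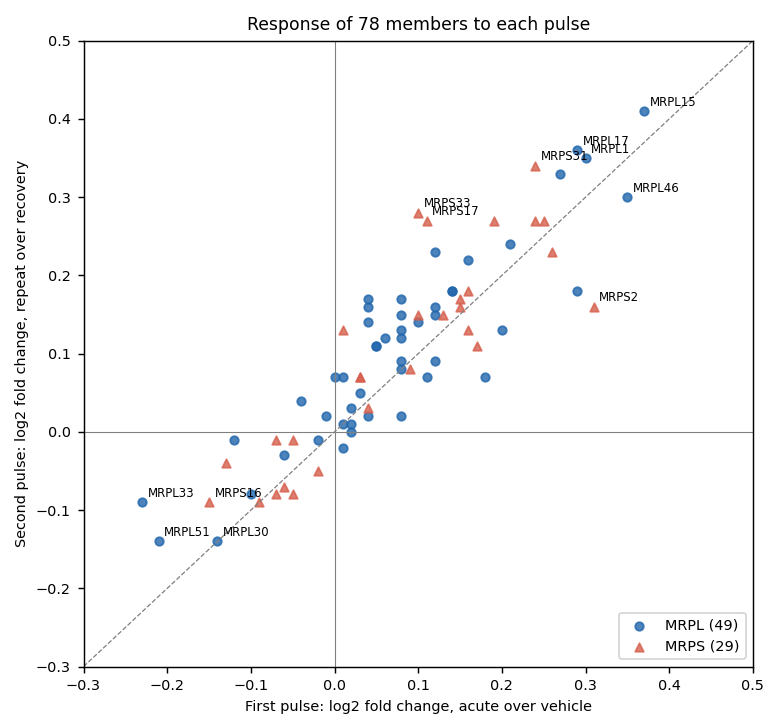
Log2 fold change of each member in the second pulse (repeat over recovery, vertical axis) against the first (acute over vehicle, horizontal axis), with 49 MRPL symbols as blue circles and 29 MRPS symbols as red triangles; the dashed line marks equal values. MRPL15 lies at the top right (0.37 and 0.41) and MRPL33 and MRPL51 at the lower left; MRPL30 and MRPS16, also there, turn to the other side of 0 in the first pulse on TPM.

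No member differed between the pulses in the interaction test (repeat minus recovery, less acute minus vehicle), by edgeR, DESeq2 or limma-voom, where edgeR called 0.651% of all genes (0.221% higher and 0.43% lower). At an unadjusted edgeR p under 0.05 there were 12 members, a count that is not set against all genes here. The smallest edgeR adjusted p among members was 0.154, for MRPS2. MRPS2 had 77.9, 83.6 and 78.4 CPM in repeat, 71.0, 71.4 and 71.9 CPM in recovery, 80.7, 85.2 and 86.0 CPM in acute and 69.4, 66.4 and 67.0 CPM in vehicle libraries. Its rise was 0.16 in the second pulse and 0.31 in the first, a difference of -0.15 ± 0.044 with an interval of -0.23 to -0.06. Among interferon-stimulated genes, 6 of 10 had a called interaction, all negative. Their levels were not lower in repeat than in acute cells by any call: repeat over acute ran from -0.05 to 0.40, with 2 higher and 0 lower. In recovery over vehicle cells, 7 of these 10 were higher. Recovery cells had 5 days without interferon, whereas the second pulse followed 4 days, and no library was taken at its start. The part of the recovery levels in the interaction was not tested.

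Grouped by structural class, with MRPS18A and MRPS30 placed in the large subunit, the first pulse gave 13 higher and 2 lower of 30 large subunit proteins with bacterial counterparts, and 7 higher and 2 lower of 21 found only in mitochondria. In the small subunit it gave 6 higher and 2 lower of 16 with bacterial counterparts, and 6 higher and 0 lower of 10 found only in mitochondria. The second pulse gave 17 higher and 1 lower, 12 and 1, 7 and 1, and 8 and 0 in the same order. Over all genes tested, 22.3% were higher and 21.5% lower in the first and 21.1% and 20.5% in the second pulse. The class medians ran from 0.02 to 0.13 in the first and from 0.08 to 0.15 in the second pulse, and no test between classes was made. MRPS36, now counted as a subunit of an enzyme complex of the citric acid cycle, has no class here.

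Summed over members, TPM was 5199, 5447 and 5327 in repeat, 4975, 5011 and 5030 in recovery, 5209, 5221 and 5178 in acute and 4887, 5033 and 4951 in vehicle libraries. On this scale all repeat and acute libraries were above all recovery and vehicle libraries. As a share of counts the members held 0.374% in repeat, 0.357% in recovery, 0.362% in acute and 0.355% in vehicle cells (means of 3), and here groups overlapped, with recovery replicate 2 at 0.362% and acute replicate 2 at 0.361%. These sums are dominated by the mRNAs with the highest levels, and no test was made on them.

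The rest of the mitochondrial translation pathway was followed with gene lists. Beside their counts stand the shares of all genes tested, 22.3% higher and 21.5% lower in the first pulse and 21.1% and 20.5% in the second. Of 5 mitoribosomal proteins with other names, 3 rose with the first pulse, among them DAP3 (mS29, a GTP-binding small subunit protein) at 0.16 ± 0.025 (edgeR adjusted p = 3.95e-06), and 2 with the second. Of 26 mitoribosome assembly and rRNA modification genes, 13 rose and 1 fell with the first pulse and 14 rose and 0 fell with the second, with medians of 0.13 and 0.09. MTERF3, which is needed for mitoribosome assembly, had 0.36 ± 0.066 in the first and 0.41 ± 0.065 in the second pulse (edgeR adjusted p = 5.64e-05 and 8.41e-06), and FASTKD2, an RNA-binding protein of the mitochondrial RNA granule, had 0.30 ± 0.035 and 0.31 ± 0.035. The exception was TFB1M, the dimethyltransferase of the small subunit rRNA, at -0.23 ± 0.054 in the first pulse (edgeR adjusted p = 0.000818). Translation factors gave 4 higher and 2 lower of 16 in the first pulse (25% and 12.5%) and 5 and 0 in the second (31.2% and 0%). The 25% is near the 22.3% of all genes called higher. The 22 mitochondrial aminoacyl-tRNA synthetase genes gave 8 higher and 3 lower (36.4% and 13.6%), then 10 and 4 (45.5% and 18.2%).

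Mitochondrial RNA synthesis and stability genes gave 12 higher and 1 lower of 22 tested in the first and 15 and 1 in the second pulse. For this and the next lists, the shares of all genes were 22.3% higher and 21.5% lower, then 21.1% and 20.5%. PNPT1, a 3′ to 5′ exoribonuclease of mitochondrial RNA that is itself known as interferon-inducible, stood out with means of 179 CPM in repeat, 59.4 in recovery, 181 in acute and 59.2 in vehicle cells (log2 fold change 1.62 ± 0.025 in the first pulse, edgeR adjusted p = 5.32e-28). Most of the mRNAs that the mitoribosome translates went the other way, and the part of poly(A) selection in their values was not tested. Of 13 mitochondrially encoded mRNAs, 8 fell and none rose with the first pulse, and 12 fell with the second, with medians of -0.18 and -0.22. Their summed TPM was 91816 ± 4020 in repeat, 116685 ± 3370 in recovery, 93298 ± 2710 in acute and 119124 ± 2090 in vehicle cells (SD, n = 3 each). MT-CO3, a cytochrome c oxidase subunit, averaged 2880 CPM in repeat, 4160 in recovery, 2880 in acute and 4270 in vehicle cells, falling by 0.57 ± 0.022 with the first and by 0.53 ± 0.022 with the second pulse (edgeR adjusted p = 2.02e-18 and 1.05e-17). Cytosolic ribosomal proteins, a list added later, gave 3 higher and 41 lower of 79 in the first and 3 and 29 in the second pulse, and whether the lists differ was not tested. These lists were not recounted under other scalings, which moved the median of all genes by at most 0.028 (log2). That shift does not limit how far counts can move. With the length offset it was 0.0 in acute over vehicle, while members called higher went from 32 to 14.

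**Figure D5:**
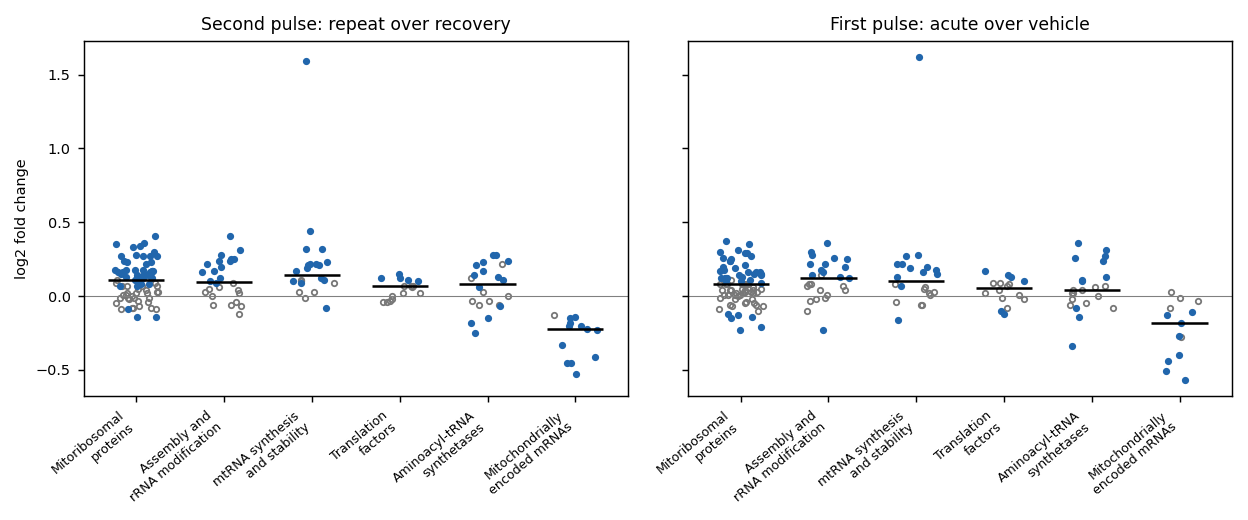
Log2 fold change of each gene in the second pulse (left, repeat over recovery) and the first (right, acute over vehicle) for members and 5 lists of the pathway; filled points passed the test, open points did not, and bars are medians. The single high point is PNPT1 (1.59 and 1.62), and the mitochondrially encoded mRNAs lie mostly below 0.

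Transcriptional regulators of mitochondrial biogenesis were mixed, with 4 of 10 higher and 2 lower in each pulse (40% and 20%). Of all genes tested, 22.3% were higher and 21.5% lower in the first pulse and 21.1% and 20.5% in the second. The share of lower calls was thus near that of all genes. The coactivator genes PPRC1 and PPARGC1B rose with the first pulse by 0.30 ± 0.026 and 0.40 ± 0.122 (log2, edgeR adjusted p = 1.64e-10 and 0.00787), and the nuclear receptor gene ESRRA by 0.21 ± 0.043 (0.000146). YY1 and GABPA, whose products bind promoters of many mitochondrial genes, fell by 0.31 ± 0.023 (9.54e-12) and by 0.16 ± 0.032 (9.09e-05). NRF1 was not called at -0.08 ± 0.045 (0.177).

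To show what lies around the starts of these genes, 300-base RefSeq windows (GRCh38.p14, 250 bases before to 50 after a start) were used. They were matched by symbol for 69 of the 78 members, and 5 motifs were searched on both strands. The YY1 motif (its letters are the capitals in the sites printed next) was in the windows of 13 of 69 members (18.8%), against 2.22% of 15843 protein-coding genes. The ETS motif CCGGAAGT, the type bound by GABPA, was in 12 (17.4%, against 6.97%), and the NRF1 motif (GCGC and TGCGC with any single base between) in 9 (13%, against 9.67%). The E-box CACGTG was in 9 (13%, against 10.9%) and the interferon-response type (a pair of TTTC with any pair of bases between) in 3 (4.35%, against 4.16%), namely MRPL14, MRPL36 and MRPL50. By call in the first pulse, the YY1 motif was in 6 of 28 members that rose, 2 of 6 that fell and 5 of 35 that were not called; the ETS motif was in 6, 1 and 5 of them. A match describes letters only and not binding.

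The YY1 matches were placed alike: 10 of 13 began at or after the start on the gene's own strand. The motif letters include ATG, the letters of a start codon. Whether these matches mark the beginning of the coding sequence rather than a regulatory site was not tested. They are shown for 4 members called in the first pulse as 30 bases read 5′ to 3′ along the gene, with the motif in capitals. MRPL46, MRPS18A and MRPS30 were higher in acute than in vehicle cells, and MRPS24 was lower.
MRPL46, chr15:88467361-88467390, minus strand: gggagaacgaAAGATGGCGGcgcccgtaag
MRPS18A, chr6:43687763-43687792, minus strand: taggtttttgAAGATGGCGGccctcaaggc
MRPS30, chr5:44808950-44808979, plus strand: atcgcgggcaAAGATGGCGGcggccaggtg
MRPS24, chr7:43869479-43869508, minus strand: cgcttggcccAAGATGGCGGcctccgtgtg
In these the motif began at base 9, 10, 14 and 20 after the start, and the first 3 of these genes rose with both pulses while MRPS24 was not called in the second (-0.04 ± 0.026, edgeR adjusted p = 0.272).

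The ETS matches lay mostly before the start, 13 of 14 sites, and on either strand. Sites of MRPL27 and MRPL47, which rose with both pulses, and of MRPL51, which fell with both, are shown to set the same letters beside opposite directions; the strand given is the one on which the motif reads as written, and the motif is in capitals.
MRPL27, chr17:50373174-50373203, minus strand: acttttcgagaCCGGAAGTgagtgatcgaa
MRPL47, chr3:179604659-179604688, minus strand: ggcttgagacgCCGGAAGTgacgctatcgt
MRPL51, chr12:6493364-6493393, plus strand: cggtccgcctgCCGGAAGTtttggagcgcc
MRPL17, among the strongest in both pulses, had a palindromic NRF1 match in the 100 bases before its start, at chr11:6683341-6683440 on the minus strand, with the match in capitals.
MRPL17: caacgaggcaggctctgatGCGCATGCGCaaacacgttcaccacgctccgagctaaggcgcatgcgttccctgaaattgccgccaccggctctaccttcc
Its first base lies 81 bases before the start.

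Mitoribosomal genes were often paired head to head. In GENCODE 44, 17 of 78 members (21.8%) had an oppositely directed protein-coding gene with its start within 1000 bases, against 11.1% of 13673 protein-coding genes tested. In a single case both are members: MRPL46 on the minus and MRPS11 (uS11m, part of the small subunit platform) on the plus strand of chromosome 15 start 63 bases apart. The 62 bases between them, at chr15:88467391-88467452 on the plus strand, held none of the 5 motifs and are printed because they are all that separates a large from a small subunit gene.
MRPL46-MRPS11 gap: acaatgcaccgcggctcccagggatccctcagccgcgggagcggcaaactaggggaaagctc
MRPS11 had 47.5, 49.9 and 47.6 CPM in repeat, 44.7, 43.3 and 40 CPM in recovery, 44.2, 47.3 and 48.4 CPM in acute and 41.5, 41.5 and 42.1 CPM in vehicle libraries. Like MRPL46 it was higher in each acute than in each vehicle library and in each repeat than in each recovery library, with log2 fold changes of 0.16 ± 0.04 and 0.18 ± 0.039 (edgeR adjusted p = 0.00164 and 0.000328). Other pairs varied. EME1, which starts 13 bases from MRPL27, rose with it in the first pulse by 0.17 (edgeR adjusted p = 0.000862), against 0.29 for MRPL27. NDUFS6, which starts 41 bases from MRPL36, fell by 0.10 with the first pulse (edgeR adjusted p = 0.0161), while MRPL36 rose by 0.20.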

How the data were processed

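Poly(A)-selected, stranded libraries were read as single 75 bp reads, per the labels' protocols. The submitters' processing notes name STAR 2.7.11a and featureCounts 2.0.3, and also cutadapt 4.3, Trim Galore 0.6.10, edgeR and Picard 2.27.5. The strand setting of the counting is not given in the sources used here. Estimated counts per gene were deposited, of which 25.49% of nonzero values were not whole and which were rounded here. The authors also deposited TPM, scaled by gene length. Counts were fitted in R 4.3.3 with edgeR 4.0.16 (quasi-likelihood F test, TMM, filterByExpr, all 12 libraries, no covariate), and adjusted over 18119 genes. Alternatives used DESeq2 1.42.0, limma 3.58.1 and other scalings. Errors of log2 fold changes are SEs, taken for edgeR as the absolute log2 fold change divided by the square root of F. Intervals are 95% by the normal distribution, and so are narrower than the F test itself would give. CPM errors are SDs. Symbols came from GENCODE 44. The members, gene lists and motifs were chosen with earlier results of these data known. Members given in full were the 4 called, non-overlapping members with the largest changes in each direction of 4 comparisons (those with vehicle as baseline, and repeat over recovery), the extremes of TPM and a fixed list (stalk, MRPS18 paralogs, disease genes, MRPL58, MRPS30). P-values measure the spread among libraries, stated to be independent biological replicates.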

Additional observations from a re-analysis of the deposited data

How the results depend on the processing

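The direction of 35 of 38 called members held in all 23 alternatives for acute over vehicle, 38 of 38 for recovery over acute, 47 of 47 for repeat over recovery, 54 of 57 for repeat over vehicle and 2 of 3 for repeat over acute. Counts moved most with gene length. On log2(TPM + 1), the counts of members higher and lower were 24 and 3 for acute over vehicle, 35 and 1 for repeat over vehicle, 3 and 20 for recovery over acute, 28 and 1 for repeat over recovery and 0 higher for repeat over acute; log2(TPM + 0.1) gave the same counts except 29 higher for repeat over recovery. An offset for implied gene length gave 14 and 3, 22 and 1, 4 and 11, 22 and 1, and 0. Upper quartile scaling gave 12 lower for acute over vehicle, 13 higher for recovery over acute and 7 lower for repeat over recovery; library totals gave 10 lower for acute over vehicle, 7 lower for repeat over recovery and 5 higher for repeat over acute. RLE scaling gave 5 lower for repeat over recovery, and no filter gave 5 higher for repeat over acute. MRPL30 turned to 0.08 on both TPM scales and 0.06 with the length offset in acute over vehicle, and to 0.01 on TPM in repeat over vehicle. MRPS16 turned to 0.01 on TPM in acute over vehicle, and to 0.02 on TPM and 0.00 with the offset in repeat over vehicle. MRPS18B ran from -0.01 (without repeat replicate 2) to 0.07 (without repeat replicate 1) in repeat over recovery. The cause was not tested.

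Leaving out each library gave 28 to 33 higher and 6 to 7 lower for acute over vehicle, 43 to 54 and 4 to 6 for repeat over vehicle, 6 to 8 higher and 22 to 31 lower for recovery over acute, 36 to 47 and 2 to 6 for repeat over recovery (6 without repeat replicate 2), 0 to 6 higher for repeat over acute (1 without repeat replicate 2), 0 for recovery over vehicle, and 0 to 1 lower for the interaction (1 without repeat replicate 2). Whether replicate numbers pair the libraries was not settled. The 18 correlations between same-numbered libraries ran from -0.082 to 0.076, and those between other libraries from -0.103 to 0.107. Same-numbered vehicle and acute libraries had 0.057, 0.076 and 0.055, but same-numbered recovery and repeat libraries had -0.006, -0.082 and 0.03. Of 12 libraries, 8 correlated best with their own number. Such small values neither show nor exclude pairing. With the replicate block, the counts of members higher and lower were 32 and 7 for acute over vehicle, 51 and 6 for repeat over vehicle, 8 and 31 for recovery over acute, 43 and 3 for repeat over recovery, 4 and 0 for repeat over acute, and 0 for recovery over vehicle and the interaction.

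Exon overlap also limits the values. Of the 78 members, 41 share exon bases with another gene, and 23 of them with one of at least 10% of their count. In 3 pairs in the first pulse, member and partner were called the same way (MRPL51 with NCAPD2, MRPS22 with COPB2, MRPS7 with GGA3), and in 4 in the second, with MRPL13 and MTBP in addition.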
